A study of Mus musculus with 12 samples.

Results

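Mal, Cldn11, Mbp, Cnp, Mog, Mag and Ugt8a are 7 genes whose products build or hold together the myelin membrane. They were taken by symbol, each through its probe set with 1 gene symbol and the highest mean over 12 arrays, and they are 7 of 19938 genes with such a probe set. Each of the 7 has exactly 1 probe set with its symbol alone. The set was chosen by the levels of Mal and Cldn11 at day 6 of reprogramming set beside those of the rest of myelin. The day 6 levels and differences of the 7 are therefore given as a description with no test, and the 7 are tested only in comparisons that leave day 6 out.

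The study compared 5 groups of mouse cells on Affymetrix Mouse Gene 1.0 ST arrays to follow astrocytes on their way to induced pluripotent stem cells (iPSCs). The astrocytes (3 arrays) were cultures of cortex from mice at postnatal day 3, carried a green fluorescent protein (GFP) reporter in 1 copy of Sox1 (Sox1+/-), were kept in DMEM/F12 and 10% fetal bovine serum, and were GFP-negative. The day 6 cells (3 arrays) were Sox1+/- cells sorted as GFP-positive on day 6 after retroviruses delivered Oct4, Klf4, Sox2 and c-Myc to such astrocytes, in mouse embryonic stem cell medium with 15% serum and 1000 U/ml leukaemia inhibitory factor (LIF). The neural stem cells (NSCs, 2 arrays) were Sox1+/- cells prepared from the telencephalon at embryonic day 12.5 to 14.5, kept without serum in N2 medium with 20 ng/ml basic FGF and 20 ng/ml EGF. The astrocyte iPSCs (2 arrays, Sox1+/-) and the MEF iPSCs (2 arrays) grew on mitomycin C-treated mouse embryonic fibroblast (MEF) feeder cells with 15% serum or serum replacement and 1500 U/ml LIF. The MEF iPSCs are 1 line with a Nanog-GFP-IRES-Puro reporter and no Sox1 reporter, so fibroblast origin and reporter go together in that group. Medium, age and reporter differ between groups, and the arrays hold no GFP-negative cells of day 6, so what changed inside cells and what the sort selected cannot be told apart. The design text calls the replicates biological without naming separate animals or cultures, so a p-value reflects how far these samples spread, and that spread may be technical.

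Myelin is a spiral of plasma membrane that oligodendrocytes in the brain and Schwann cells in nerves wrap around axons. Its layers are pressed together by Mbp at their inner faces, sealed along their edges by tight junction strands of Cldn11, and enriched in galactolipids that Ugt8a begins to make. Mal, a proteolipid that crosses the membrane several times, gathers in lipid-rich domains of compact myelin and is also known from the apical membrane of epithelial cells, and Cldn11 is also known from Sertoli cells of the testis. Cnp, Mbp, Mog and Mag are textbook genes of oligodendrocytes that mature and myelinate, a step driven by Olig2, Sox10 and Myrf.

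Mal and Cldn11 stood far above every other group in the day 6 cells, and Cnp was lower there than in astrocytes and NSCs, so the 3 members with the widest differences are shown here by the 250 bases of reference DNA before their start sites. They come from RefSeq, build GRCm38.p6, which holds windows for 6 of the 7 genes, and they are written 5′ to 3′ on the strand of the gene. The Mal window is chr2:127656696-127656945 (minus strand), the Cldn11 window chr3:31149670-31149919 (plus strand) and the Cnp window chr11:100574689-100574938 (plus strand). Capitals mark matches, on either strand, to any of 7 motifs searched.
Mal: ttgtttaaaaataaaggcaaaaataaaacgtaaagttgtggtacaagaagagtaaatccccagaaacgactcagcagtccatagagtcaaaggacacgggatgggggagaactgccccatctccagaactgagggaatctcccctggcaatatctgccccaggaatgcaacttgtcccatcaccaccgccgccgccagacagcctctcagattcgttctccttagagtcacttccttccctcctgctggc
Cldn11: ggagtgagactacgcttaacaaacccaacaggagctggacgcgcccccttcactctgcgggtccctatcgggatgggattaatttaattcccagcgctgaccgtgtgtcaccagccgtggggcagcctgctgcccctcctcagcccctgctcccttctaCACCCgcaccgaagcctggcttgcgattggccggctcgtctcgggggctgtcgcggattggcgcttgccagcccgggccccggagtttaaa
Cnp: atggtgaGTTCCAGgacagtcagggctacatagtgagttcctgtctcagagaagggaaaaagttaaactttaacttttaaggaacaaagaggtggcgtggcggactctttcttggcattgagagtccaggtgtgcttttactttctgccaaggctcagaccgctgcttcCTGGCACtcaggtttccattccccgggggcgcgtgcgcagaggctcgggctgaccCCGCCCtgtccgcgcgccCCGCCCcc
The motifs, with the share of all 32851 reference windows of 250 bases that hold each, were the GC box GGGCGG (32.7%), the TATA box TATAAA (12.4%), the MYRF motif CTGGNAC (16.1%), the SOX motif ACAATG (10.7%), the octamer ATGCAAAT (1.6%), the MYC E-box CACGTG (6.0%) and the KLF core CACCC (52.0%). Matches did not overlap one another in these 3 windows. The Mal window held none of the 7, the Cldn11 window held 1 KLF core, and the Cnp window held 2 GC boxes and 2 MYRF motifs. The CpG count was 7 in the Mal window, 19 in the Cldn11 window and 13 in the Cnp window, against a median of 6 over all windows, and the GC content was 50.0%, 63.6% and 57.2% against a median of 52.4%. Mal and Cldn11, alike in their levels below, thus share none of the motifs searched in these windows. Of the members not printed, the Mog window held 1 MYRF motif and the Ugt8a window 0. Mag held 2 before each of its start sites 1 and 2, and 0 before start site 3. A match is a description of letters only.

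Levels are log2 of the deposited probe set intensity, and the median of all probe sets of an array lay between 6.61 and 6.71 on that scale. Because probes differ in brightness, a level is compared between groups for the same gene and never between genes.

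Mal read 6.75, 6.93 and 7.02 on the 3 astrocyte arrays and 10.40, 10.13 and 10.39 on the 3 day 6 arrays. It read 6.20 and 6.36 in NSCs, 6.43 and 6.61 in astrocyte iPSCs, and 6.28 and 6.47 in MEF iPSCs. All 3 day 6 arrays were above all 9 others, and the astrocyte arrays came next without overlap with the remaining 6. The day 6 mean exceeded the astrocyte mean by 3.41 ± 0.10 on the log2 scale (SE of the limma fit), which is 10.6-fold. It exceeded NSCs by 4.03 ± 0.11 (16.4-fold), astrocyte iPSCs by 3.79 ± 0.11 (13.8-fold) and MEF iPSCs by 3.93 ± 0.11 (15.3-fold). These 4 comparisons share the day 6 arrays. Mal lay below the array median on all NSC and iPSC arrays, and with 16 subtracted before log2 the difference from NSCs was 4.35, so the folds hold for the intensities as deposited and may understate the change. Of the other 4 groups, neighbours in the order of levels did not differ beyond their spread between astrocyte iPSCs and MEF iPSCs or between MEF iPSCs and NSCs.

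Cldn11 read 6.43, 6.39 and 6.84 in astrocytes and 10.20, 9.89 and 9.32 in day 6 cells. It read 6.57 and 6.63 in NSCs, 6.53 and 6.56 in astrocyte iPSCs, and 6.37 and 6.57 in MEF iPSCs. The day 6 arrays again did not overlap with any other, and their SD of 0.44 (n = 3) was the widest of the 5 groups for this gene. The difference was 3.25 ± 0.19 from astrocytes (9.52-fold), 3.20 ± 0.21 from NSCs (9.2-fold), 3.26 ± 0.21 from astrocyte iPSCs (9.56-fold) and 3.33 ± 0.21 from MEF iPSCs (10.1-fold). Among the 4 groups without day 6, every neighbour in the order of Cldn11 levels overlapped with the next.

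**Figure D1:**
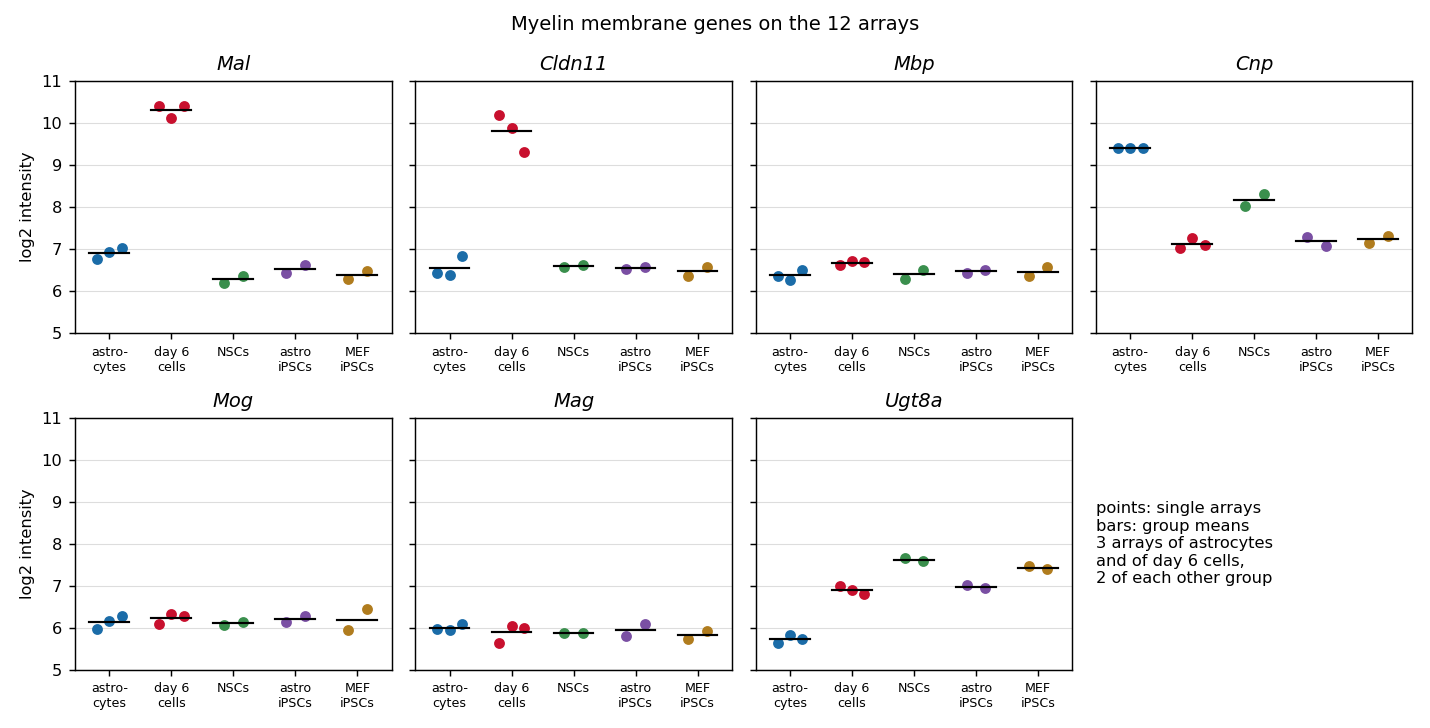
Log2 intensity (vertical axis) of each of the 7 myelin membrane genes in each array, by group (horizontal axis), with points for arrays and bars for group means (3 arrays of astrocytes and of day 6 cells, 2 of each other group). The day 6 points of Mal (10.13 to 10.40) and Cldn11 (9.32 to 10.20) lie above all others, Cnp is highest in astrocytes, Ugt8a lowest there, and Mbp, Mog and Mag vary by less than 0.5 over the 12 arrays.

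Mbp, which presses the inner faces of the membrane together, showed no such step. It read 6.36, 6.26 and 6.51 in astrocytes, 6.63, 6.70 and 6.70 in day 6 cells, 6.29 and 6.51 in NSCs, 6.44 and 6.51 in astrocyte iPSCs, and 6.36 and 6.57 in MEF iPSCs. The day 6 arrays were the 3 highest of the 12 by a narrow margin, with differences of 0.30 ± 0.09 from astrocytes, 0.28 ± 0.10 from NSCs, 0.20 ± 0.10 from astrocyte iPSCs and 0.21 ± 0.10 from MEF iPSCs. The whole span of Mbp over the 12 arrays was 0.44, and only the day 6 arrays lay above the median of their array.

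Mog, an adhesion protein of the outermost myelin layer, read 5.98, 6.16 and 6.28 in astrocytes, 6.09, 6.33 and 6.28 in day 6 cells, 6.06 and 6.15 in NSCs, 6.13 and 6.28 in astrocyte iPSCs, and 5.95 and 6.44 in MEF iPSCs. Mag, a sialic acid-binding protein of the innermost layer that faces the axon, read 5.96, 5.95 and 6.09 in astrocytes, 5.64, 6.04 and 5.99 in day 6 cells, 5.88 and 5.88 in NSCs, 5.81 and 6.09 in astrocyte iPSCs, and 5.74 and 5.91 in MEF iPSCs. Both genes stayed below the array median on all 12 arrays, and the day 6 arrays overlapped with those of every other group. The day 6 mean differed from the other groups by 0.03 to 0.13 for Mog and by -0.11 to 0.06 for Mag.

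Cnp, a phosphodiesterase bound to the inner face of the membrane in loosely packed myelin, was highest in astrocytes. It read 9.40, 9.40 and 9.39 in astrocytes, 8.01 and 8.30 in NSCs, 7.03, 7.26 and 7.08 in day 6 cells, 7.29 and 7.08 in astrocyte iPSCs, and 7.15 and 7.31 in MEF iPSCs. Astrocytes stood above NSCs and NSCs above the other 3 groups without overlap, and those 3 groups overlapped with each other. The day 6 mean was lower than that of astrocytes by 2.27 ± 0.09 on the log2 scale (4.84-fold) and lower than that of NSCs by 1.03 ± 0.10 (2.05-fold). From the 2 iPSC groups it differed by -0.06 ± 0.10 and -0.11 ± 0.10.

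Ugt8a, the galactosyltransferase that makes galactocerebroside, was lowest in astrocytes. It read 5.63, 5.84 and 5.73 there, 6.99, 6.89 and 6.81 in day 6 cells, 7.65 and 7.60 in NSCs, 7.01 and 6.95 in astrocyte iPSCs, and 7.47 and 7.39 in MEF iPSCs. NSCs were highest, followed by MEF iPSCs, with no overlap between them, while day 6 cells and astrocyte iPSCs overlapped. The day 6 mean was above astrocytes by 1.16 ± 0.07 (2.24-fold), below NSCs by 0.72 ± 0.08 (1.65-fold), and differed from astrocyte iPSCs by -0.08 ± 0.08 and from MEF iPSCs by -0.53 ± 0.08.

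A gene is called here at a Benjamini-Hochberg adjusted p under 0.05 over all genes and an absolute log2 difference of at least 1. At those sizes, 3 members lay past the limits upward (Mal, Cldn11, Ugt8a) and 1 downward (Cnp) in day 6 cells against astrocytes, where 6.75% of all genes were called higher and 10.1% lower. The counts were 2 and 1 against NSCs (all genes 2.94% and 5.94%), 2 and 0 against astrocyte iPSCs (2.82% and 3.29%) and 2 and 0 against MEF iPSCs (2.93% and 3.18%). Since the choice of the genes used these levels, nothing is read from these counts. A filter keeping genes above the array median in at least 2 arrays would retain 5 of the 7 members and drop Mog and Mag, and Mbp would pass through its day 6 arrays alone. Cldn11 was above the median in 4 arrays, 3 of them day 6, and so would not pass without day 6 either. Cells that express a gene more and a larger share of cells that express it cannot be told apart in bulk RNA.

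The comparisons without day 6 cells ask how the same genes differ between astrocytes, NSCs and established pluripotent lines. Against astrocytes, Cnp and Ugt8a moved in opposite directions, and Mal and Cldn11 did not pass the limits in any comparison without day 6. Relative to astrocytes, Cnp fell by 1.24 ± 0.10 on the log2 scale in NSCs (limma adjusted p = 1.53e-06), by 2.21 ± 0.10 in astrocyte iPSCs (adjusted p = 8.53e-09) and by 2.16 ± 0.10 in MEF iPSCs (adjusted p = 1.04e-08). Ugt8a rose by 1.89 ± 0.08 in NSCs (adjusted p = 7.99e-09), by 1.25 ± 0.08 in astrocyte iPSCs (adjusted p = 9.58e-08) and by 1.70 ± 0.08 in MEF iPSCs (adjusted p = 8.78e-09). In each of these 3 comparisons, which share the astrocyte arrays, 1 of 7 members was called higher and 1 lower. All genes called higher and lower were 6.49% and 8.1% in NSCs, 9.44% and 11.4% in astrocyte iPSCs, and 8.71% and 11.4% in MEF iPSCs.

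Mal was lower than in astrocytes by less than the fold limit in all 3, with log2 differences of -0.62 ± 0.11 in NSCs (limma adjusted p = 0.000719), -0.38 ± 0.11 in astrocyte iPSCs (adjusted p = 0.0145) and -0.52 ± 0.11 in MEF iPSCs (adjusted p = 0.00209). Cldn11 differed from astrocytes by 0.05 ± 0.21 in NSCs (95% interval -0.41 to 0.51, adjusted p = 0.892), by -0.01 ± 0.21 in astrocyte iPSCs (interval -0.47 to 0.46) and by -0.08 ± 0.21 in MEF iPSCs (interval -0.55 to 0.38). Mbp, Mog and Mag did not pass the test in any of the 6 comparisons without day 6, and neither did Cldn11. Against astrocytes, the intervals for NSCs ran from -0.19 to 0.23 for Mbp, from -0.34 to 0.27 for Mog and from -0.39 to 0.15 for Mag.

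Between NSCs and iPSCs, Cnp was lower in astrocyte iPSCs by 0.97 ± 0.11 (limma adjusted p = 3.19e-05) and in MEF iPSCs by 0.92 ± 0.11 (adjusted p = 4.89e-05), both just under the fold limit. Leaving out NSC replicate 1 brought these to -1.11 and -1.07, leaving out astrocyte iPSC replicate 1 brought the former to -1.07, and leaving out MEF iPSC replicate 2 brought the latter to -1.002, each past the limit. Ugt8a was lower in astrocyte iPSCs than in NSCs by 0.64 ± 0.09 (adjusted p = 0.000101), and in MEF iPSCs the difference was -0.19 ± 0.09 (adjusted p = 0.107). MEF iPSCs exceeded astrocyte iPSCs in Ugt8a by 0.45 ± 0.09 (adjusted p = 0.012). No member was called in these 3 comparisons by limma, and the counts at an unadjusted p under 0.05 were 2 for astrocyte iPSCs against NSCs, 1 for MEF iPSCs against NSCs and 1 between the iPSC groups. All genes called in either direction were 12.5%, 12.1% and 0.742%. Counts at an unadjusted p, here and below, carry no fold limit. The share of all genes at that level is not given, so nothing is read from them.

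**Figure D2:**
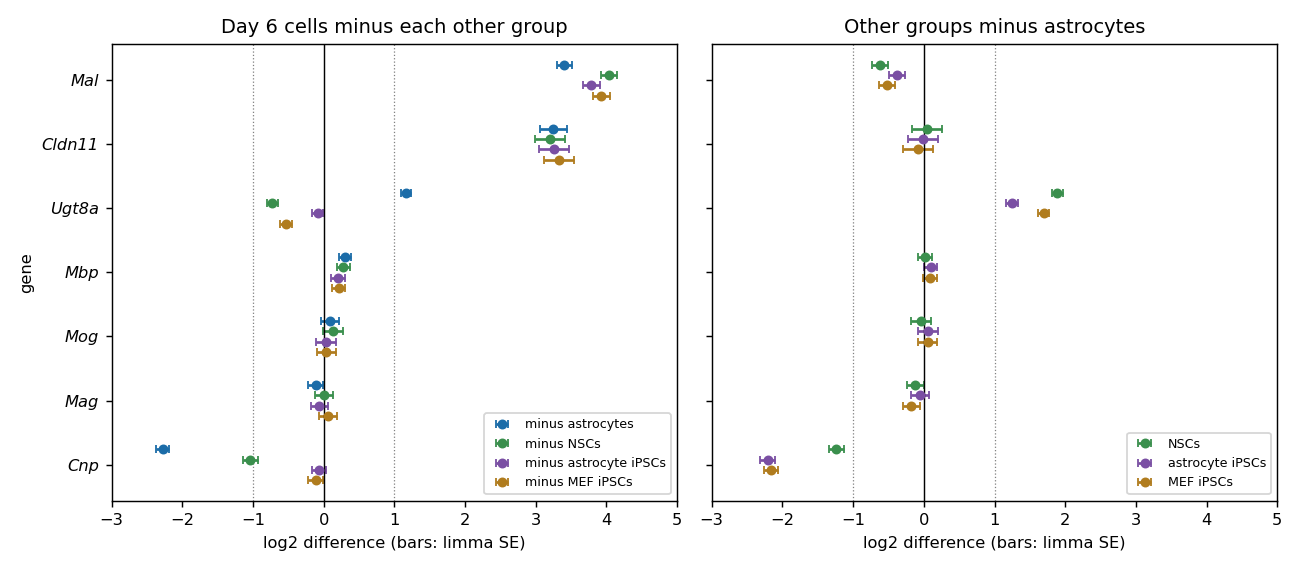
Log2 differences (horizontal axis) of the 7 genes (vertical axis), day 6 cells minus each other group at left and the other groups minus astrocytes at right, with limma SE as bars and dotted lines at the fold limit of 1. Mal and Cldn11 lie beyond 3 in all 4 day 6 differences, while Mbp, Mog and Mag lie within 0.31 of 0 in both panels.

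The question of whether Mal and Cldn11 came with the rest of myelin was put to a list of 28 other measured myelin proteins, 3 more listed genes being not analysed here. This list and those below were also chosen with earlier results of these data known. Their day 6 p-values therefore set a difference beside the spread of the arrays and are no independent support. In day 6 cells against astrocytes, 2 of the 28 rose and 9 fell, beside 6.75% higher and 10.1% lower of all genes, and the median difference was -0.23 against 0.04 over all genes. Calls below astrocytes were about as many in other groups, with 9 of 28 lower in NSCs, 9 in astrocyte iPSCs and 8 in MEF iPSCs, and these comparisons share the astrocyte arrays. The shares of all genes called lower there were 8.1%, 11.4% and 11.4%. Pllp (plasmolipin), a proteolipid of myelin from the same MARVEL domain family as Mal, rose by 2.35 ± 0.12 (5.11-fold, limma adjusted p = 1.51e-08). Anln, named because the higher calls were so few and therefore chosen after its values were seen, rose by 1.56 ± 0.10 (adjusted p = 8.97e-08). Anln encodes anillin, a scaffold of the septin and actin ring in dividing cells that is also found in myelin. Among those that fell were Cadm4, an adhesion molecule between glia and axon (-3.67 ± 0.09, adjusted p = 9.96e-11), Gpm6b, a proteolipid of the neural membrane (-3.07 ± 0.11, adjusted p = 1.36e-09), Pmp22, a protein of peripheral compact myelin (-3.03 ± 0.13, adjusted p = 4.85e-09), and Cryab, a small heat shock protein (-2.60 ± 0.13, adjusted p = 1.23e-08). Car2, carbonic anhydrase, was just past the limit at -1.01 ± 0.26 (adjusted p = 0.00692) and missed it without astrocyte replicate 2 (-0.92), without day 6 replicate 2 (-0.93) or with arrays centred on the median (-0.99).

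Pllp, like Mal and Cldn11, was highest in day 6 cells. It read 6.04, 6.05 and 6.08 in astrocytes and 8.57, 8.12 and 8.55 in day 6 cells. It read 6.09 and 6.39 in NSCs, 6.23 and 6.06 in astrocyte iPSCs, and 6.22 and 6.22 in MEF iPSCs. The 3 day 6 arrays stood above the other 9 with no overlap, and the differences were 2.17 ± 0.13 from NSCs (limma adjusted p = 2.04e-07), 2.27 ± 0.13 from astrocyte iPSCs (adjusted p = 2.54e-07) and 2.19 ± 0.13 from MEF iPSCs (adjusted p = 3.63e-07). Anln exceeded NSCs by 1.53 ± 0.11, astrocyte iPSCs by 1.06 ± 0.11 and MEF iPSCs by 1.44 ± 0.11, with a largest adjusted p of 2.08e-05. These comparisons share the day 6 arrays with one another. Over all genes, 108 (0.542%) were called higher in day 6 cells than in each other group.

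Neither Mobp nor Opalin passed the limits against astrocytes. Mobp, a protein of compact myelin, averaged 6.54 ± 0.09 (SD, n = 3) in day 6 cells and 6.29 ± 0.09 (n = 3) in astrocytes, a difference of 0.26 ± 0.07 (limma adjusted p = 0.011) under the fold limit. Opalin, a membrane protein of mature oligodendrocytes, averaged 5.32 ± 0.04 and 5.22 ± 0.10, a difference of 0.10 ± 0.07 (adjusted p = 0.313). Both genes were chosen as illustrations after their values were seen. Their means in both groups lay below the array medians of 6.61 to 6.71, where the arrays may not resolve a change. Against NSCs, 3 of the 28 myelin proteins were called higher in day 6 cells (Pllp, Anln, Cryab) and 5 lower (Gpm6b, Omg, Cadm4, Tmem98, Bcas1). Against each iPSC group 4 were higher (Pllp, Gpm6b, Anln, Cryab) and 2 lower (Car2, Lpar1). All genes called higher and lower were 2.94% and 5.94% against NSCs, 2.82% and 3.29% against astrocyte iPSCs, and 2.93% and 3.18% against MEF iPSCs. Gpm6b and Cryab were thus below astrocytes and above iPSCs in the same day 6 arrays.

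Of 14 measured enzymes of myelin lipids, 10 were at an unadjusted p under 0.05 by limma in day 6 cells against astrocytes, with a median of -0.08. Called higher were 0 and lower 2, counts near the shares of all genes (6.75% and 10.1%). Both that fell break galactolipids down in the lysosome, namely Galc, galactosylceramidase (-2.65 ± 0.10, adjusted p = 1.35e-09), and Arsa, arylsulfatase A (-1.57 ± 0.08, adjusted p = 1.73e-08). Elovl7 (-0.95) and Degs1 (-0.78) followed, under the fold limit, and Elovl7 passed it in 3 of 20 other settings. Against NSCs Galc was called, lower by 1.29 ± 0.11 (adjusted p = 2.76e-06), and the other 13 were not. In that comparison 2.94% of all genes were called higher and 5.94% lower. Gltp, a glycolipid transfer protein picked after its values were seen, was higher than in NSCs by 0.96 ± 0.09 (limma adjusted p = 4.83e-06), just under the fold limit. It passed the limit without day 6 replicate 2 (1.005). Against the iPSC groups none was called by limma, with 6 and 8 of 14 at an unadjusted p under 0.05. Shares of all genes called higher and lower were 2.82% and 3.29% for astrocyte iPSCs and 2.93% and 3.18% for MEF iPSCs.

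The oligodendrocyte factors Olig1 and Olig2 were far lower in day 6 cells than in astrocytes. Of 12 transcription factors of the lineage, 0 were called higher and 2 lower against astrocytes, beside 6.75% and 10.1% of all genes. At an unadjusted p under 0.05 there were 8. Olig2 read 10.63, 10.99 and 10.33 in astrocytes, 6.27, 6.35 and 6.45 in day 6 cells, and 12.30 and 12.12 in NSCs. The 4 arrays of the iPSC groups read 6.01 to 6.40, and day 6 cells differed from them by 0.06 ± 0.17 (limma adjusted p = 0.868) and 0.16 ± 0.17 (adjusted p = 0.599). Against astrocytes Olig2 fell by 4.29 ± 0.15 (adjusted p = 1e-09), and Olig1 fell by 4.06 ± 0.16 (adjusted p = 2.6e-09). Myrf, the factor that switches on myelin genes in maturing oligodendrocytes, was higher by 0.94 ± 0.09 (adjusted p = 2.92e-06), under the fold limit, at 7.89 ± 0.05 in day 6 cells and 6.95 ± 0.20 in astrocytes (SD, n = 3). Without astrocyte replicate 3 the difference was 1.03, and with 16 subtracted before log2 it was 1.04, both past the limit. Day 6 cells were lower in Myrf than astrocyte iPSCs (8.32 ± 0.06, n = 2, adjusted p = 0.00668 by limma) and than MEF iPSCs (8.62 ± 0.02, n = 2, adjusted p = 0.000188). The part of Myrf in the levels of Mal and Cldn11 was not tested. Against NSCs 4 of the 12 factors were called lower (Olig1, Olig2, Sox8, Myt1), against astrocyte iPSCs 1 higher (Zfp536, 1.07, and 0.95 without day 6 replicate 1), and against MEF iPSCs none by limma, with 4 at an unadjusted p under 0.05. All genes called were 5.94% lower against NSCs, 2.82% higher against astrocyte iPSCs, and 2.93% higher and 3.18% lower against MEF iPSCs. Sox10 differed from astrocytes by 0.03 ± 0.09 (adjusted p = 0.844) and was chosen as an illustration after its values were seen.

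Of 10 measured genes of oligodendrocyte precursors, 0 were called higher and 3 lower against astrocytes, beside 6.75% and 10.1% of all genes. At an unadjusted p under 0.05 there were 5. Ptprz1, a receptor phosphatase of progenitors and glia, fell by 3.39 ± 0.14 (adjusted p = 4.37e-09), C1ql1 fell by 2.88 ± 0.10 (adjusted p = 1.14e-09), and Vcan, the matrix proteoglycan versican, fell by 1.77 ± 0.17 (adjusted p = 3.89e-06). Against NSCs 1 was called higher (Cnksr3) and 5 lower (Pdgfra, Cspg4, Lhfpl3, Vcan, Ptprz1), where Cspg4 went from -1.21 to -0.98 without NSC replicate 2. Against astrocyte iPSCs 1 was higher (Ptprz1) and 2 were lower (Pdgfra, Vcan), and Vcan went from -1.02 to -0.56 without astrocyte iPSC replicate 2 and also missed the limit without day 6 replicate 3 (-0.97) or day 6 replicate 2. Against MEF iPSCs 1 was higher (Ptprz1) and 1 lower (Pdgfra). All genes called higher and lower were 2.94% and 5.94% against NSCs, 2.82% and 3.29% against astrocyte iPSCs, and 2.93% and 3.18% against MEF iPSCs. The iPSCs grew on fibroblast feeder cells, whose part in the Pdgfra and Vcan levels was not tested. Fibroblast markers summed to 742.0 to 853.9 in day 6 cells, 1919 to 3418 in astrocyte iPSCs and 1789 to 1863 in MEF iPSCs. In NSCs against astrocytes, 3 of these 10 were called higher (Pdgfra, Cspg4, Lhfpl3) and 1 lower (C1ql1), led by Pdgfra, the growth factor receptor of precursors, at 3.20 ± 0.20 (adjusted p = 1.35e-07), while C1ql1 was lower at -2.93 ± 0.11 (adjusted p = 4.49e-09). Of the 12 transcription factors, 2 were higher in NSCs than in astrocytes, Olig2 (1.56 ± 0.17, adjusted p = 1.2e-05) and Myt1, a zinc finger factor (1.62 ± 0.07, adjusted p = 1.6e-08), and 0 were lower. In NSCs 6.49% of all genes were called higher than in astrocytes and 8.1% lower.

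**Figure D3:**
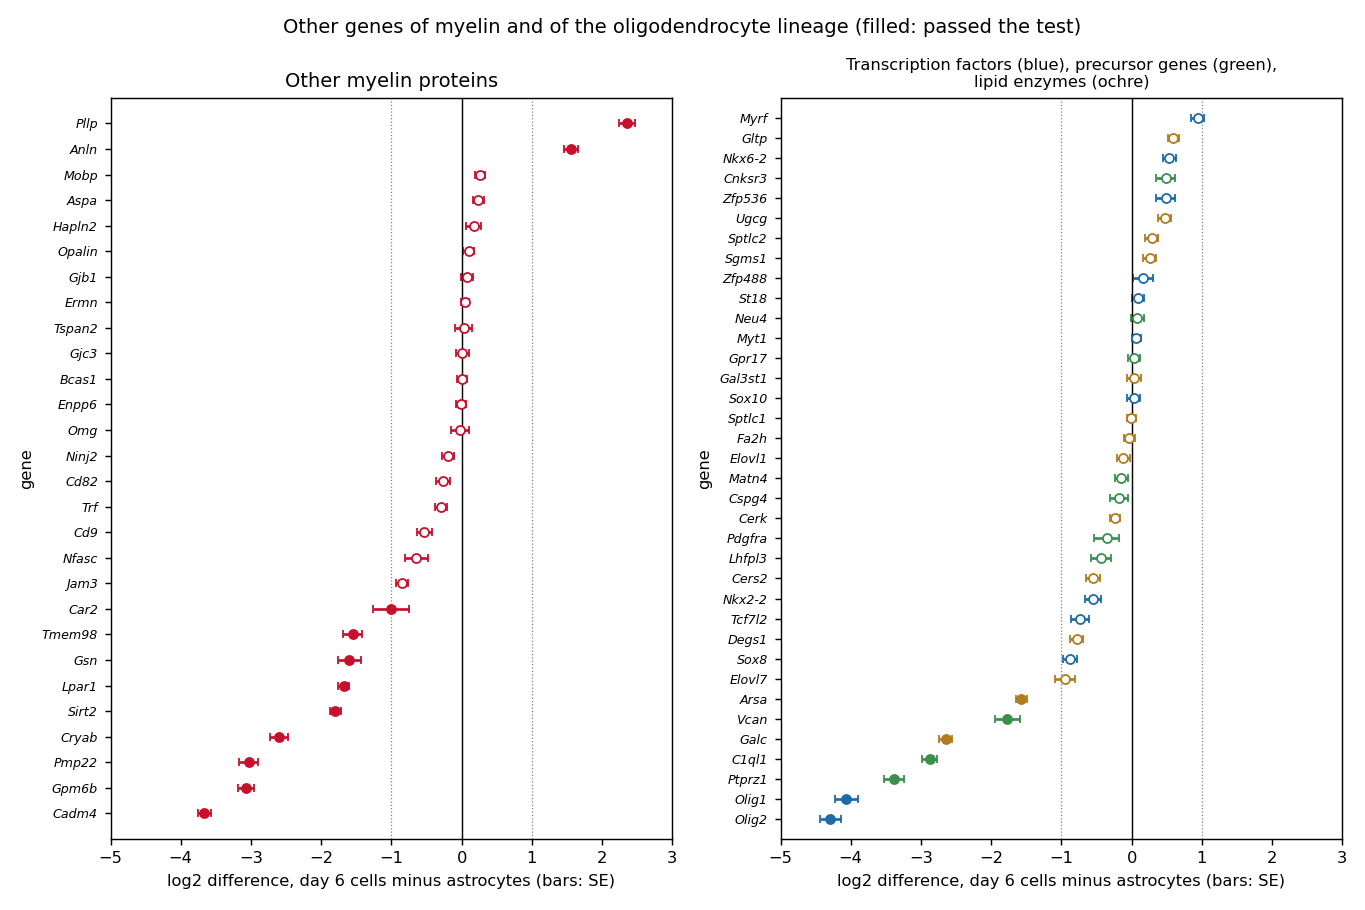
Log2 difference of day 6 cells minus astrocytes (horizontal axis) for other genes of myelin and of the oligodendrocyte lineage (vertical axis), with SE as bars, filled points for called genes and dotted lines at the fold limit of 1. At left 2 of 28 myelin proteins lie past the upper limit (Pllp, Anln) and 9 past the lower, and at right no transcription factor, precursor gene or lipid enzyme lies past the upper limit.

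Of 19 genes of the MARVEL domain and related families, 3 were called higher in day 6 cells than in astrocytes (Pllp, Plp2, Cmtm7) and 2 lower (Mal2, Cmtm5), which is not far from the shares of all genes (6.75% and 10.1%). Cmtm7, a MARVEL protein known from immune cells, read 6.23, 6.46 and 6.54 in astrocytes, 9.55, 9.49 and 9.40 in day 6 cells, 6.99 and 7.12 in NSCs, 8.01 and 8.14 in astrocyte iPSCs, and 7.99 and 7.95 in MEF iPSCs. It was highest in day 6 cells without overlap but, unlike Mal, stood at an intermediate level in the iPSCs. The difference was 3.07 ± 0.09 from astrocytes (limma adjusted p = 1.63e-10), 2.43 ± 0.10 from NSCs (adjusted p = 7.63e-09), 1.41 ± 0.10 from astrocyte iPSCs (adjusted p = 7.86e-07) and 1.51 ± 0.10 from MEF iPSCs (adjusted p = 5.09e-07).

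Mal2, a relative of Mal that serves transport in epithelial cells, went the other way. It read 8.60, 8.62 and 7.94 in astrocytes, 6.19, 5.84 and 5.87 in day 6 cells, 5.64 and 5.92 in NSCs, 7.31 and 6.95 in astrocyte iPSCs, and 7.24 and 6.88 in MEF iPSCs. Mal2 fell by 2.42 ± 0.19 from astrocytes to day 6 cells (adjusted p = 5.4e-07). Cmtm5, a MARVEL protein of glia, fell by 3.02 ± 0.15 (adjusted p = 1.13e-08). Of the 19 genes, 5 were called higher (Pllp, Plp2, Cmtm7, Ocln, Syngr2) and 2 lower (Cmtm5, Syp) against NSCs, and 2 higher (Pllp, Cmtm7) and 1 lower (Mal2) against each iPSC group. All genes called higher and lower were 2.94% and 5.94% against NSCs, 2.82% and 3.29% against astrocyte iPSCs, and 2.93% and 3.18% against MEF iPSCs. The Mal2 differences of -1.16 ± 0.21 from astrocyte iPSCs and -1.09 ± 0.21 from MEF iPSCs missed the limit without astrocyte iPSC replicate 1 (-0.98) and without MEF iPSC replicate 1 (-0.91). Plp2 exceeded NSCs by 1.32 and fell just under the limit without NSC replicate 2 (0.9998).

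Of 20 other claudins, 0 were called in either direction by limma in day 6 cells against astrocytes (6.75% of all genes higher and 10.1% lower). Against NSCs 0 were called as well. At an unadjusted p under 0.05 there were 12 and 8, a looser level to which the shares of called genes do not apply. The largest difference from astrocytes was that of Cldn12, at -0.88 ± 0.07 (adjusted p = 6.3e-07), followed by Cldn3 at 0.62 ± 0.06 (adjusted p = 5.29e-06), both under the fold limit. Cldn4, Cldn6 and Cldn7, claudins of epithelia and pluripotent cells, were the claudins of the iPSC groups. Cldn6 read 10.56 and 10.43 in astrocyte iPSCs and 10.57 and 10.67 in MEF iPSCs against 6.36, 6.28 and 6.42 in day 6 cells and 6.01, 6.16 and 6.18 in astrocytes. Against astrocyte iPSCs 1 claudin was called higher in day 6 cells (Cldn12, 1.01 ± 0.08, adjusted p = 2.28e-06, with 0.96 without astrocyte iPSC replicate 2 and values just under the limit without day 6 replicate 1 or 3) and 3 lower (Cldn4, Cldn6, Cldn7), and the same 3 were lower against MEF iPSCs. Shares of all genes called higher and lower were 2.94% and 5.94% against NSCs, 2.82% and 3.29% against astrocyte iPSCs, and 2.93% and 3.18% against MEF iPSCs.

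Proteins that anchor or accompany claudins at tight junctions went both ways. Of 10 measured, 1 rose and 3 fell from astrocytes to day 6 cells, beside 6.75% and 10.1% of all genes. F11r, the junctional adhesion molecule of epithelia, rose by 1.23 ± 0.13 (adjusted p = 8.75e-06). Jam2 fell by 2.59 ± 0.06 (adjusted p = 4.98e-11), Mpp5, a polarity scaffold, by 1.57 ± 0.11 (adjusted p = 2.97e-07) and Tjp1, the scaffold ZO-1 that binds claudins, by 1.07 ± 0.08 (adjusted p = 3.56e-07). Ocln (occludin) was higher than in NSCs by 2.07 ± 0.15 (adjusted p = 7.76e-07) and higher than in astrocytes by 0.60 ± 0.13 (adjusted p = 0.00253), the latter under the fold limit. Against NSCs 3 were higher (F11r, Ocln, Patj) and 1 lower (Jam2), and against each iPSC group 0 were higher and 2 lower (F11r, Cgn). Shares of all genes called higher and lower were 2.94% and 5.94% against NSCs, 2.82% and 3.29% against astrocyte iPSCs, and 2.93% and 3.18% against MEF iPSCs. Cgn, the junction plaque protein cingulin, missed the limit against astrocyte iPSCs without their replicate 1 (-0.98) and against MEF iPSCs without day 6 replicate 1 (-0.93).

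**Figure D4:**
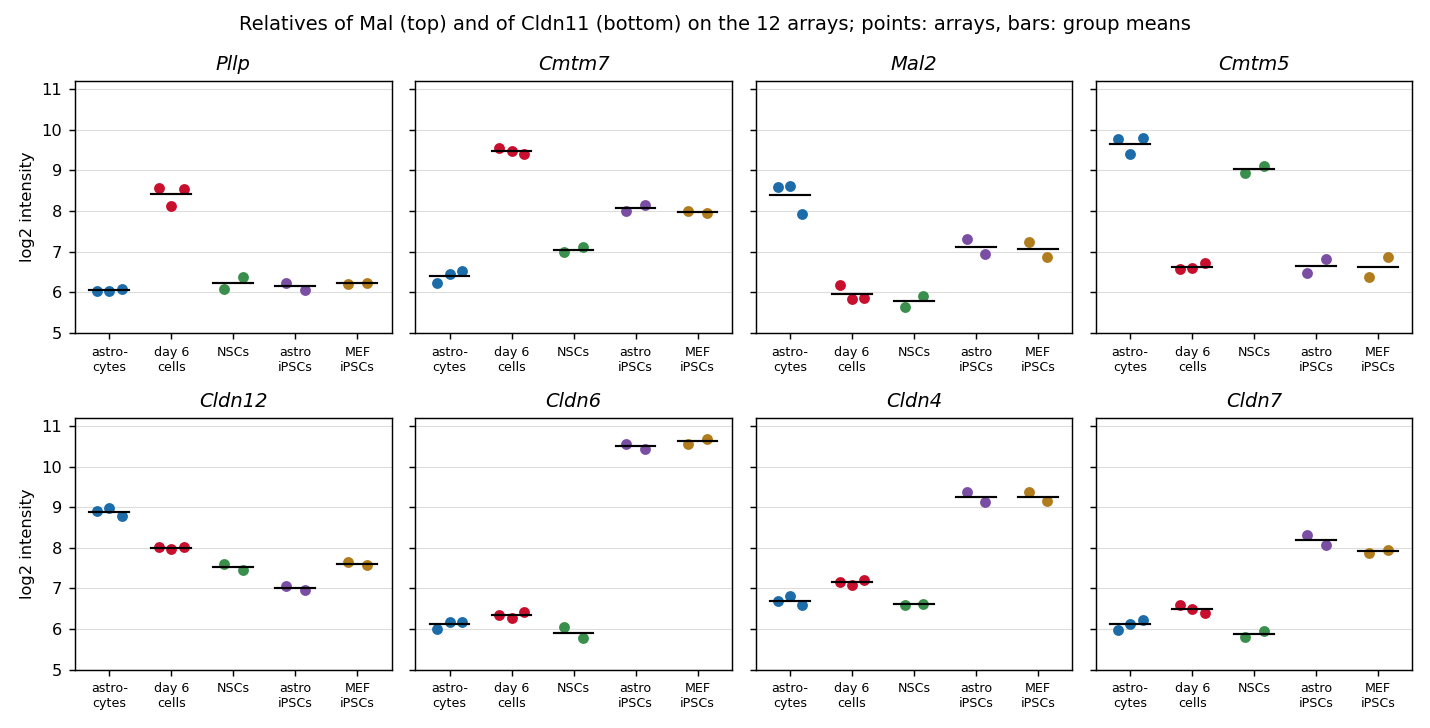
Log2 intensity (vertical axis) of 4 MARVEL domain relatives of Mal (top) and 4 other claudins (bottom) in each array by group (horizontal axis), with points for arrays and bars for group means. Pllp and Cmtm7 are highest in the day 6 arrays, Mal2 and Cmtm5 in astrocytes, Cldn12 in astrocytes, and Cldn6, Cldn4 and Cldn7 in the iPSC groups.

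Likeness of pattern was measured by Pearson's r over the 12 arrays among 6245 genes whose group means span at least 1. It is a description, because the 12 points share 5 groups and a gene high in day 6 cells alone will resemble any other such gene. Mal and Cldn11 had r = 0.98 with each other. The genes most like Mal were Akr1c18 (0.994), Foxd1 (0.992) and Sbspon (0.989), and those most like Cldn11 were Ehf (0.995), Gcnt3 (0.994) and Foxd1 (0.989). Foxd1, a forkhead transcription factor, averaged 11.08 in day 6 cells and 5.62 to 5.87 in the other groups. Pllp and Cmtm7, relatives of Mal that were highest in day 6 cells, were picked by hand and ranked too. Pllp stood at rank 20 for Mal (0.975) and at rank 13 for Cldn11 (0.977). Cmtm7 stood at rank 214 for Mal (0.783) and at rank 174 for Cldn11 (0.827).

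Cnp and Ugt8a belonged to other patterns. Cnp had r = -0.38 with Mal, -0.45 with Cldn11 and -0.73 with Ugt8a, and Ugt8a had r = -0.08 with Mal and 0.06 with Cldn11. The genes most like Cnp were Myh10 (0.993), Psd2 (0.993) and Adamts5 (0.992), all highest in astrocytes and next in NSCs. Those most like Ugt8a were Spats2 (0.982), Tut4 (0.975) and Dcps (0.968), all lowest in astrocytes. Mbp, Mog and Mag, whose group means spanned less than 1, were not ranked.

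Markers of the labelled cells and of other cells that make Mal or Cldn11 were read on the same arrays, as summed intensities per array. No marker is at 0, since the lowest intensity on any array is 20.2 and array medians are 97.9 to 104.9. The 7 astrocyte markers summed to 20171 to 22780 in astrocytes and 560.9 to 618.5 in day 6 cells, all 7 being called lower. The 7 neural stem cell markers summed to 18208 to 18901 in NSCs and 1377 to 1524 in day 6 cells, with 5 of 7 lower than in NSCs, although day 6 cells were sorted on a neural stem cell reporter. The 7 pluripotency markers summed to 387.7 to 478.1 in astrocytes, 721.2 to 796.7 in day 6 cells and 15791 to 18898 in the iPSC groups. Nanog and Pou5f1 were called higher in day 6 cells than in astrocytes (2 of 7, with 0 lower). Pou5f1 encodes Oct4, which the retroviruses delivered, and whether its signal came from the delivered copy was not tested. In day 6 cells 6.75% of all genes were called higher and 10.1% lower than in astrocytes, and 5.94% lower than in NSCs. The part of these markers in the day 6 levels of Mal and Cldn11 was not tested.

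Epithelial markers moved with Mal and Cldn11 from astrocytes to day 6 cells but not across the iPSCs. Of 9, 4 were called higher in day 6 cells than in astrocytes (Cdh1, Epcam, Esrp1, St14), beside 6.75% of all genes higher and 10.1% lower. The sums were 766.6 to 833.9 in astrocytes, 1915 to 2330 in day 6 cells, 758.8 to 809.5 in NSCs, and 5419 to 6364 in the iPSC groups, where Mal and Cldn11 were at their low level. Their part in the day 6 levels of Mal and Cldn11 was not tested. Schwann cell markers (6 of 8 measured) summed to 437.0 to 489.8 in day 6 cells and 629.9 to 712.8 in astrocytes, with 0 higher and 1 lower. Sertoli cell markers (6 of 7 measured) summed to 464.8 to 507.5 and 424.5 to 475.1, with 0 called by limma and 1 at an unadjusted p under 0.05. Choroid plexus markers (7) summed to 398.7 to 475.5 and 438.0 to 470.0, with 0 called and 1 at that level. Meningeal fibroblast markers (8) summed to 459.5 to 495.4 and 5212 to 6107, with 0 higher and 2 lower, and fibroblast markers (6) to 742.0 to 853.9 and 4996 to 5495, with 0 higher and 5 lower.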

How the data were processed

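The 12 arrays measured total RNA of 5 groups. The deposited values are probe set intensities that the authors made by robust multi-array averaging (RMA, which corrects background and normalizes between arrays), according to the submitters' processing notes. Its software version and the genome build are not given in the sources used here. The intensities proved linear, from 20.2 to 15436, and were turned into log2 values for all steps. A constant added before deposit could not be told from the values and would shrink log2 differences of dim genes. No array repeats another, and Pearson's r within groups was 0.992 to 0.996.

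Of 28853 probe sets, 21789 have 1 gene symbol, 1621 several and 5443 none in the platform annotation, and 999 genes have several such probe sets. The limma package (3.58.1, R 4.3.3) fitted a mean for each group to the 12 arrays together, with 7 residual and 10.9 total degrees of freedom and Benjamini-Hochberg adjustment over 19938 genes. Errors of differences are limma SE, those of levels SD. The number of arrays limits the precision. The steps were tested on simulated data.

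The 7 genes and all gene lists were chosen with earlier results of these data known. The naming rule drew up to 4 genes of each list with the largest absolute difference of day 6 cells from astrocytes. It drew up to 2 for NSCs from astrocytes, and not all genes so drawn are given here. For each member whose group means span at least 1 it drew the 3 most similar genes, without predicted genes, clone names or olfactory and vomeronasal receptors. Some genes near the fold limit, such as Car2 and Gltp, were named after their values were seen. Genes that make up a count of 5 or fewer are named too. Other settings tried were averaged probe sets of a gene, dim genes left out (12592 kept), cyclic loess, centring on the median, 16 subtracted before log2, trend and robust eBayes, the 2 groups compared alone, a replicate block, and each array left out in turn. Motifs and base content were counted in RefSeq promoter windows with Python 3.11.15.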

Additional observations from a re-analysis of the deposited data

How the results depend on the processing

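Under 20 alternatives, 1380 differences of the 7 genes were recomputed. Direction changed in 0 called differences and in 0 described day 6 differences of at least 1 in absolute log2. Of 552 described day 6 differences, 6 moved by more than the SD, all with 16 subtracted before log2: Mal to 3.60, 4.35, 4.05 and 4.22 against astrocytes, NSCs, astrocyte iPSCs and MEF iPSCs, Cnp to -2.42 and Ugt8a to 1.47 against astrocytes. Of 828 tested values, 0 lost their call and 7 gained one, all of Cnp against NSCs. The number of members called in astrocyte iPSCs against NSCs became 1 with arrays centred on the median (Cnp -1.001) and 1 with 16 subtracted (Cnp -1.06), and it ran from 0 to 1 when each array was left out. In MEF iPSCs against NSCs it became 1 with 16 subtracted (Cnp -1.003), and it ran from 0 to 1 when each array was left out. Signs of values under the fold limit changed 54 times, described day 6 differences among them, such as Mog against MEF iPSCs (-0.20 to 0.28). The other myelin proteins called numbered 10 to 11 against astrocytes, 7 to 9 against NSCs, 6 to 8 against astrocyte iPSCs and 6 to 7 against MEF iPSCs.

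Pairing by replicate number was not used in the main fit. Deviations of same-numbered astrocyte and day 6 arrays, the 1 pair of groups with 3 numbers, correlated at 0.41, -0.008 and 0.224. Replicate 1 of MEF iPSCs correlated at 0.396 with that of astrocytes and at 0.408 with that of day 6 cells. These values cannot settle whether same-numbered samples share a source or batch. Over all pairs of groups the correlations ran from -0.097 to 0.41. With the replicate number as a block (replicate block), 3364 genes were called in day 6 cells against astrocytes in place of 3360, and the count of other myelin proteins stayed at 11. In the day 6 comparisons of the listed genes, the block ended the calls of Mal2 against MEF iPSCs (-0.96) and Vcan against astrocyte iPSCs (-0.99), and added calls of Elovl7 (1.03) and Gltp (1.003) against NSCs and of Cd82 (1.01) against astrocyte iPSCs. Mog and Mag, below the array median on every array, could hide changes that the arrays do not resolve. So could other dim myelin genes such as Mobp and Opalin.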
